A study of Rattus norvegicus with 6 samples.

Results

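The DnaJ (HSP40) genes were taken as every row of the count table whose symbol begins with Dnaja, Dnajb or Dnajc followed by a number. This gave 45 genes of 37209 gene symbols, with 4 of class A, 13 of class B and 28 of class C. RNA was sequenced from rat bone marrow mesenchymal stem cells (BMSCs), which were primary wild-type cells isolated from femur. The tested cells received 3% cigarette smoke extract (CSE), an aqueous extract of smoke, for 6 h, and the control cells were held for 6 h in medium without serum, with 3 libraries in each group. The labels do not say whether the extract was given in serum-free medium, and if it was not, effects of the extract and of serum cannot be told apart. All cells had been grown to 80% confluence in medium with 10% fetal bovine serum. The labels give no age, sex or number of animals. They also do not state that a group's libraries came from different cultures or animals, so each p-value reflects the spread among these 3 and 3 libraries, part of which may be technical.

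DnaJ proteins are the J-domain cochaperones of HSP70. The J domain stimulates ATP hydrolysis by HSP70, which then closes on its client protein, and the rest of each DnaJ protein decides which clients are delivered and in which compartment. Class A proteins resemble bacterial DnaJ most closely, class B proteins share its J domain and a glycine- and phenylalanine-rich stretch, and class C proteins share the J domain alone. In cultured cells, heat and thiol-reactive chemicals induce some of these genes through the transcription factor HSF1, and stress of the endoplasmic reticulum (ER) induces others through the unfolded protein response.

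Promoters of 4 members are shown because 3 of them rose and carry DNA elements through which those responses are known to act, and because Dnajc27 carries such an element too but fell. They were chosen with the direction of change known, so they do not show how often the elements go with rises. Shares of the heat shock element by direction are given with the promoter counts below. The sequences are RefSeq's for the rat build GRCr8, which is not the build named for the counts, and run from 230 bases before the annotated gene start to base 30 after it. They read 5′ to 3′ on the gene's strand. Capitals mark the heat shock element in its 2-unit form, GAANNTTC or TTCNNGAA, or, in Dnajc3, the ER stress element. The Dnaja1 stretch lies at chr5:60638174-60638433 (plus strand), that of Dnajb1 at chr19:41431112-41431371 (minus strand), that of Dnajc3 at chr15:102432437-102432696 (plus strand) and that of Dnajc27 at chr6:32788005-32788264 (plus strand).
Dnaja1: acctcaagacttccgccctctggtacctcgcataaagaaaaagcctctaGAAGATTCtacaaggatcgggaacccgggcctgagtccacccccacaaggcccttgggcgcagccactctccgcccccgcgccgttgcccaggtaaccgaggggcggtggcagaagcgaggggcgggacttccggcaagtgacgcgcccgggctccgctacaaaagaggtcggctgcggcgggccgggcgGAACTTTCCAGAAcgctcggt
Dnajb1: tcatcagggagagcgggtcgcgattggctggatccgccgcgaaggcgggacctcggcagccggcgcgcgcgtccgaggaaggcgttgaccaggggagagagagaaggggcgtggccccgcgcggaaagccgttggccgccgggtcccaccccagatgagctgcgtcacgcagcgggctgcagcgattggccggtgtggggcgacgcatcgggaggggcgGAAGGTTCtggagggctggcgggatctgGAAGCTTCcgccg
Dnajc3: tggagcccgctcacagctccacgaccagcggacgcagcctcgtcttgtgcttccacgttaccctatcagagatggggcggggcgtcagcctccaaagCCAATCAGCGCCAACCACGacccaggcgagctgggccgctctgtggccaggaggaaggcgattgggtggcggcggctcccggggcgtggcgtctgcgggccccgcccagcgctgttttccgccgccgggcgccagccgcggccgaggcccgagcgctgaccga
Dnajc27: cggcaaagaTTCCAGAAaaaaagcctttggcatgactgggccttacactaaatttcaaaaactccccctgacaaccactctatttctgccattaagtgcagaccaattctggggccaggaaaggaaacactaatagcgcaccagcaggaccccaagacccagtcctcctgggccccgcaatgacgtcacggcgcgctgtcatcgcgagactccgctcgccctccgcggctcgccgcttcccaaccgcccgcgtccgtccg

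The family as a whole was divided. Of the 45 genes, 40 passed the filter on low counts and were tested, and 18 of these were higher with CSE, 12 were lower and 10 did not pass the threshold of an adjusted p of 0.05. Of the tested DnaJ genes 45% were higher and 30% lower, against 36.3% and 37.5% of all 13390 genes tested, of which 73.9% passed in either direction. Changes of at least 2-fold numbered 7 upward and 7 downward among the 40, where the shares over all tested genes were 10.7% and 14.4%. Every CSE library lay above every control library in 20 DnaJ genes and below in 13, beside 37.2% and 38.6% of all tested genes, or 75.8% in either direction. The median log2 fold change of the 40 was 0.13, against −0.02 over all tested genes. Scaling moved this split: with total counts alone, which shifted the median of all genes by −0.19, 17 DnaJ genes were higher and 17 lower, and with upper-quartile factors, which shifted it by −0.14, 17 were higher and 16 lower.

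The summed level of the family was nevertheless higher in every CSE library. In normalized counts per 1000000 counts (CPM), the 45 genes summed to 4285, 4214 and 4469 in CSE libraries 1 to 3, and to 2237, 2211 and 2179 in control libraries 1 to 3. Means were 4322 ± 132 and 2209 ± 28.6 CPM (SD, n = 3 each), a ratio of 1.96. Most of this difference in counts came from Dnaja1 and Dnajb1, which together held 35.8% to 38.1% of the family's counts in CSE libraries and 11.9% to 12.2% in control libraries. Without them, the other 43 genes summed to 2728 ± 32.7 CPM with CSE and 1942 ± 28.4 CPM in the control (SD, n = 3 each), a ratio of 1.41. In bulk RNA of this kind, a change in the number of cells of one type and a change in RNA per cell cannot be told apart.

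**Figure D1:**
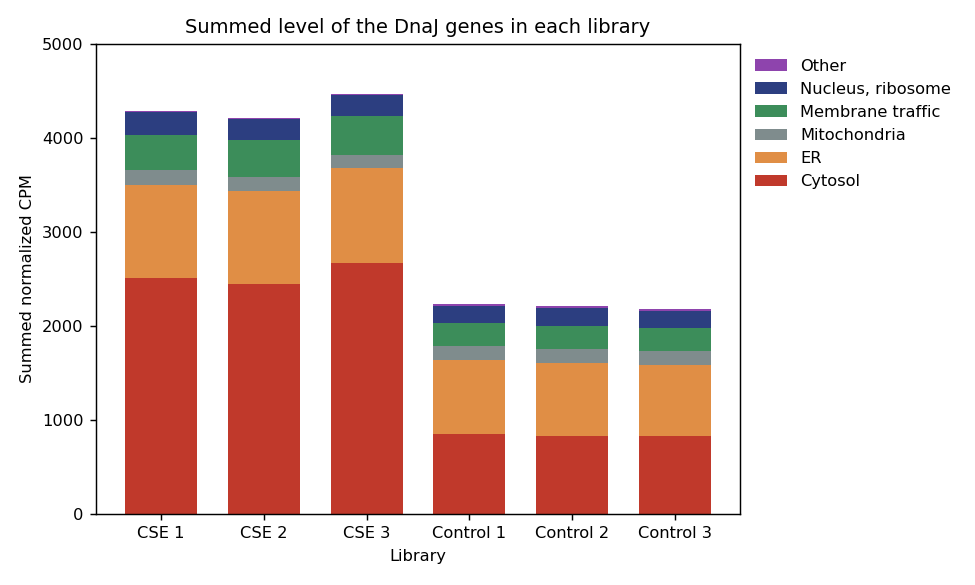
Summed normalized CPM (vertical axis) of the 45 DnaJ genes in each of the 6 libraries, stacked by the site where the proteins act. The cytosolic genes sum to 2441 to 2670 CPM in the CSE libraries and 824 to 851 CPM in the control libraries, while the mitochondrial genes lie between 143 and 155 CPM in all 6.

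The libraries held between 19433637 and 22589327 counts with CSE and between 15958621 and 18651194 in the control. All 12 mesenchymal stromal markers listed for these cells were tested. Of them 4 were higher, 5 lower and 3 did not pass, where 36.3% of all tested genes were higher and 37.5% lower. Col1a1 was called lower, at 26096 ± 666 CPM with CSE and 28797 ± 1889 CPM in the control (SD, n = 3 each, edgeR adjusted p = 0.0087). Changes of at least 2-fold went both ways. Cxcl12 fell 4.49-fold (edgeR adjusted p = 9.0e-16), while Cd44 rose 2.13-fold and Vcam1, from a low control level, 5.71-fold (edgeR adjusted p = 6.2e-13 and 8.6e-06). RNA of macrophages was also present. The receptor gene Csf1r was lower, at 117 ± 6.28 CPM with CSE and 139 ± 0.206 CPM in the control (SD, n = 3 each, edgeR adjusted p = 2.6e-04). Ptprc was lower too, at 49.3 ± 0.819 CPM with CSE and 61.9 ± 2.30 CPM in the control (edgeR adjusted p = 4.5e-05). Cd14 fell to 16.5 ± 1.14 CPM with CSE, against 45.2 ± 3.97 CPM in the control (SD, n = 3 each, edgeR adjusted p = 3.2e-11). The chemokine receptor gene Cx3cr1 fell to 1.10 ± 0.20 CPM with CSE, against 31.4 ± 1.46 CPM in the control (SD, n = 3 each, edgeR adjusted p = 2.1e-15). Of 14 markers of blood, macrophage and endothelial cells, 13 were in the table and 7 were tested, 1 of them higher, 4 lower and 2 not past the threshold. The higher marker was Cd68, at 51.8 ± 3.08 CPM with CSE and 47.0 ± 0.791 CPM in the control (SD, n = 3 each, edgeR adjusted p = 0.045). Itgam did not pass, at 39.2 ± 0.251 CPM with CSE and 42.6 ± 2.51 CPM in the control (edgeR adjusted p = 0.089). Macrophage markers thus did not all move together. The 13 summed to between 268 and 284 CPM in CSE libraries and between 365 and 374 CPM in control libraries, and the lymphoid markers Cd79a and Cd3e and the red cell marker Hbb were at 0 in all 6. The part of these cells in the DnaJ values was not tested.

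DnaJ proteins of the cytosol serve the HSP70s that refold and triage cytosolic proteins, and their genes held 3 of the 4 largest fold rises of the family. Of 12 cytosolic members 9 were tested. Rises were called in 7, a fall in 1 and neither in 1, and the median log2 fold change was 0.85. These are 77.8% higher and 11.1% lower, against 36.3% and 37.5% of all tested genes. The list leaves out 5 members assigned to no site here, all called lower, some of which may act in the cytosol. Counting those as cytosolic would lower the share of rises. Median-of-ratios scaling also gave 7, 1 and 1, while total counts alone and upper-quartile factors gave 7 higher and 2 lower.

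Dnajb1 encodes the archetypal heat-inducible HSP40, which works with HSP70 in refolding and in dissolving aggregates. It had 626, 545 and 703 CPM in CSE libraries 1 to 3, against 84.7, 85.5 and 84.9 CPM in control libraries 1 to 3. The lowest CSE value was far above the highest control value, and the CSE libraries varied more among themselves than the control libraries did. The fold change was 7.35, or 2.88 ± 0.07 on the log2 scale (SE, edgeR adjusted p = 9.0e-16), the largest of the 40 and rank 236 from the top of all 13390 genes tested.

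Dnaja1 encodes a class A cochaperone of the cytosol. Its level was 944, 964 and 1001 CPM in CSE libraries 1 to 3 and 182, 184 and 181 CPM in control libraries 1 to 3, with narrow spread in both groups and no overlap. This was a 5.32-fold rise, 2.41 ± 0.04 on the log2 scale (SE, edgeR adjusted p = 1.6e-17). A second class A gene, Dnaja4, had 112, 93.6 and 110.3 CPM with CSE against 24.1, 24.6 and 23.4 CPM in the control. CSE library 2 was the lowest of its group, as for Dnajb1, but lay well above all control libraries. Dnaja4 rose 4.39-fold (log2 fold change 2.13 ± 0.07, SE, edgeR adjusted p = 4.2e-14).

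The other cytosolic members that rose did so by less than 2-fold, and all 3 CSE libraries lay above all 3 control libraries for each. Dnajb4, a close relative of Dnajb1, averaged 281 ± 14.0 CPM with CSE and 151 ± 10.3 CPM in the control (SD, n = 3 each), a 1.86-fold rise. For Dnajb6, whose human protein keeps polyglutamine proteins from aggregating, the values were 121, 119.7 and 122 CPM with CSE against 77.7, 62.0 and 61.0 CPM in the control. Control library 1 stood above the other two controls there, yet below every CSE library, and the rise was 1.81-fold. Dnaja2, the remaining class A gene of the cytosol, averaged 236 ± 6.84 CPM with CSE and 138 ± 1.29 CPM in the control, a 1.71-fold rise. Dnajc7, which binds both HSP70 and HSP90 through its TPR repeats, averaged 108 ± 4.63 CPM with CSE and 79.4 ± 3.73 CPM in the control, a 1.36-fold rise. Among these 4 genes the highest edgeR adjusted p was 1.2e-06, that of Dnajc7.

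Dnajb5 went the other way. This class B gene, whose protein is built like that of Dnajb1, had 29.6, 27.8 and 28.4 CPM in CSE libraries 1 to 3 and 39.2, 37.2 and 42.5 CPM in control libraries 1 to 3. All CSE values were below all control values, with a log2 fold change of −0.47 ± 0.07 (SE, edgeR adjusted p = 8.2e-06). Dnajb2, which carries ubiquitin-interacting motifs and hands clients to the proteasome, averaged 65.5 ± 4.16 CPM with CSE and 67.0 ± 3.75 CPM in the control (SD, n = 3 each). Its groups overlapped. The log2 fold change was −0.03 ± 0.06 (SE, edgeR adjusted p = 0.64), although the gene was called lower under total counts alone (−0.22) and upper-quartile factors (−0.17). The remaining 3 cytosolic members were not tested. Dnajb7 and Dnajb8, known from testis, were listed at 0 in all 6 libraries, and Dnajb13, which acts in cilia and sperm tails, had between 0 and 5 counts per library. A count of 0 allows up to 3 counts, which is 0.142 to 0.177 CPM in these libraries and covers counting error only.

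**Figure D2:**
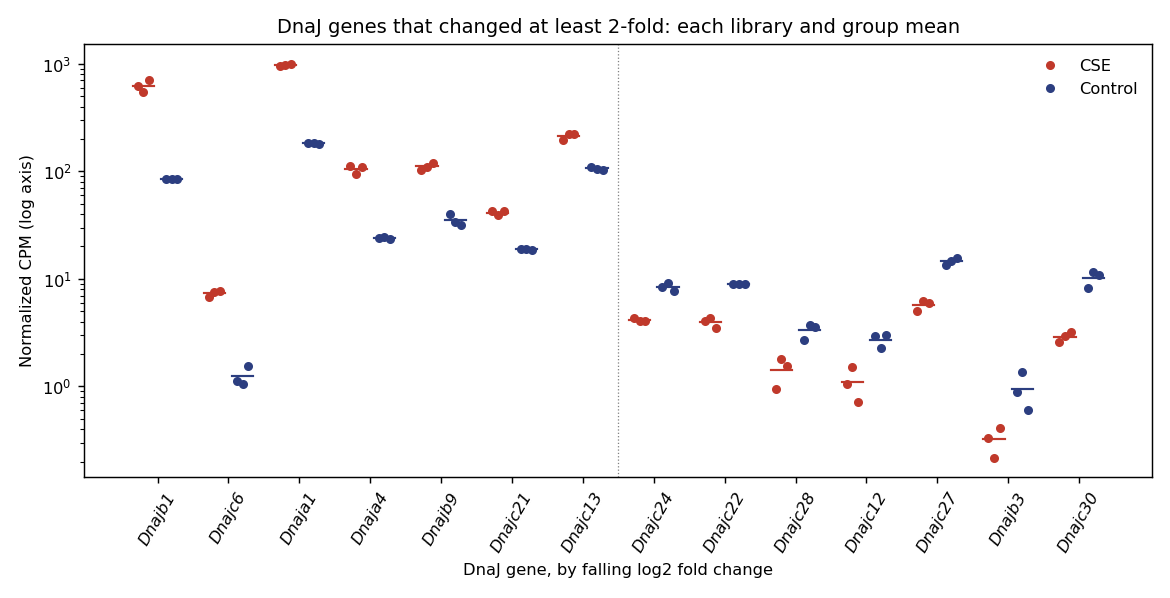
Normalized CPM on a log axis for the 14 DnaJ genes that changed at least 2-fold, with CSE libraries left and control libraries right for each gene, points for the 3 libraries of a group and bars for group means. The 7 genes left of the dotted line are higher with CSE, from Dnajb1 at 7.35-fold to Dnajc13 at 2.01-fold, and the 7 right of it are lower, with no overlap between groups in any of the 14.

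DnaJ proteins of the ER serve BiP, the HSP70 of the ER lumen, or sit in the ER membrane. Of 11 members, all tested, 5 were higher, 3 lower and 3 not called, and the median log2 fold change was 0.11. The shares, 45.5% higher and 27.3% lower, were not far from the 36.3% and 37.5% of all tested genes. The balance depended on scaling, with 4 higher and 5 lower, and a median of −0.08, under total counts alone, and 4 higher and 5 lower, and a median of −0.03, with upper-quartile factors.

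Among the cochaperones of BiP, Dnajb9 changed most. Its protein, ERdj4, restrains the stress sensor IRE1 and takes part in degradation of misfolded ER proteins. It had 102.8, 111 and 119.5 CPM in CSE libraries 1 to 3, against 40.5, 34.0 and 31.4 CPM in control libraries 1 to 3. No library of one group reached the range of the other, and the log2 fold change was 1.66 ± 0.08 (SE, edgeR adjusted p = 4.3e-12). Dnajc3, whose protein p58IPK assists BiP and inhibits the eIF2 kinase PERK, averaged 186 ± 3.80 CPM with CSE and 109 ± 2.06 CPM in the control (SD, n = 3 each), a 1.71-fold rise. Dnajb11, which binds unfolded and secreted proteins directly as ERdj3, rose 1.27-fold, to 217 ± 12.0 CPM with CSE against 171 ± 6.70 CPM in the control. The membrane-bound Dnajc1, or ERdj1, which contacts ribosomes, rose 1.15-fold (edgeR adjusted p = 0.00426), a call that ended under upper-quartile factors (edgeR adjusted p = 0.291) and total counts alone (edgeR adjusted p = 0.784). Over all alternatives that p lay between 0.00208 and 0.784. Dnajc25, a membrane protein of less defined role, averaged 63.9 ± 1.60 CPM with CSE and 32.9 ± 2.46 CPM in the control, a 1.94-fold rise just short of 2-fold.

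Dnajc10, which encodes the disulfide reductase ERdj5, was nearly level at 229 ± 9.87 CPM with CSE and 235 ± 8.71 CPM in the control (SD, n = 3 each). Its groups overlapped, and its log2 fold change was −0.04 ± 0.05 (SE, edgeR adjusted p = 0.51). The same held for Dnajc14, known for export of receptors from the ER, at −0.04 ± 0.06 (SE, edgeR adjusted p = 0.56). Both were called lower under total counts alone and upper-quartile factors, at −0.22 and −0.17 for Dnajc10 and −0.23 and −0.18 for Dnajc14.

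Dnajb12, Dnajb14 and Dnajc18, which are among the ER members anchored in the membrane with the J domain toward the cytosol, were not called higher. Dnajb12, which with Dnajb14 takes part in ER-associated degradation, averaged 51.6 ± 1.14 CPM with CSE and 48.0 ± 0.747 CPM in the control (SD, n = 3 each). The groups did not overlap, but the log2 fold change, 0.11 ± 0.06, missed the threshold (SE, edgeR adjusted p = 0.095). Dnajb14 had 12.2, 14.5 and 10.9 CPM with CSE and 17.1, 18.4 and 14.9 CPM in the control, with the highest CSE library just below the lowest control library. It fell by 0.43 on the log2 scale (edgeR adjusted p = 0.0026). Dnajc18 had 12.9, 13.4 and 14.1 CPM with CSE and 16.0, 19.3 and 16.1 CPM in the control, and fell by 0.35 (edgeR adjusted p = 0.0038). The third fall among ER genes was that of Dnajc16, at 8.87, 10.9 and 9.66 CPM with CSE and 13.4, 11.2 and 11.4 CPM in the control. Its log2 fold change of −0.29 ± 0.12 (SE, edgeR adjusted p = 0.033) was no longer called when single libraries were left out. The edgeR adjusted p was then 0.139 without CSE replicate 1, 0.0755 without CSE replicate 3 and 0.146 without Control replicate 1, within a range of 0.00136 to 0.146 over all alternatives.

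Genes of mitochondrial DnaJ proteins moved little, except for Dnajc30. Of 6 tested, none was called higher by edgeR, 1 fell and 5 did not pass, with log2 fold changes of these 5 between −0.16 and 0.18. Among all tested genes 36.3% were higher and 37.5% lower. Total counts alone gave 0 higher and 3 lower, and upper-quartile factors 0 higher and 2 lower. DESeq2 and limma-voom likewise gave no higher call, and 2 genes, Dnajc11 and Dnajc15, were higher at an unadjusted edgeR p under 0.05. Median-of-ratios factors in the edgeR fit called the same 2 genes higher, Dnajc11 with an edgeR adjusted p of 0.0352 and Dnajc15 with 0.0391. Dnaja3, which encodes the J protein of the matrix HSP70, averaged 53.2 ± 3.23 CPM with CSE and 51.7 ± 2.51 CPM in the control (SD, n = 3 each). Dnajc19 and Dnajc15, both of the import motor at the inner membrane, were at −0.16 ± 0.08 and 0.18 ± 0.08 (SE), and neither passed. Dnajc19 was called lower under total counts alone (−0.35, edgeR adjusted p = 0.00127) and upper-quartile factors (−0.29, edgeR adjusted p = 0.00404). Dnaja3 was called lower under total counts alone (−0.15, edgeR adjusted p = 0.0419). Dnajc11, tied to the organisation of cristae, was at 0.15 ± 0.07 (SE, edgeR adjusted p = 0.060). It was called without CSE replicate 2 (edgeR adjusted p = 0.0454), without CSE replicate 3 (edgeR adjusted p = 0.0245) and without Control replicate 1 (edgeR adjusted p = 0.0482), within a range of 0.0245 to 0.868 over all alternatives.

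Dnajc30 was the exception among the mitochondrial genes and the deepest fall of all 40. Its protein maintains respiratory complex I in humans. It had 2.56, 2.94 and 3.20 CPM in CSE libraries 1 to 3, from 54 to 62 counts each, and 8.24, 11.5 and 10.9 CPM in control libraries 1 to 3, from 140 to 218 counts. Every CSE library was far below every control library, and the log2 fold change was −1.82 ± 0.16 (SE, edgeR adjusted p = 1.9e-08).

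Genes of DnaJ proteins in membrane traffic split into 3 that rose and 1 that fell, while Dnajc5b and Dnajc5g were listed at 0. Among all tested genes 36.3% were higher and 37.5% lower, and 4 members are few to set beside those shares. Dnajc6 encodes auxilin, which recruits HSP70 to strip clathrin from coated vesicles and is best known from neurons. It had 6.78, 7.53 and 7.70 CPM in CSE libraries 1 to 3, from 138 to 149 counts, against 1.12, 1.05 and 1.56 CPM in control libraries 1 to 3, from 19 to 31 counts. All CSE libraries were above all control libraries, and the rise of 5.83-fold (log2 fold change 2.54 ± 0.19, SE, edgeR adjusted p = 2.2e-09) was the second largest fold change of the family, from a low control level. Gak, the auxilin gene that most cells use and a J-domain gene outside the DnaJ names, rose 1.41-fold, to 146 ± 4.93 CPM with CSE against 103.5 ± 5.84 CPM in the control (SD, n = 3 each).

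Dnajc13, whose protein RME-8 acts on endosomes, had 197, 221 and 224 CPM with CSE and 109, 106 and 104 CPM in the control. CSE library 1 was the lowest of its group but far above the control values, and the rise was 2.01-fold (SE of the log2 fold change 0.05, edgeR adjusted p = 2.3e-11). Dnajc5, the gene of cysteine string protein, which guards vesicle fusion proteins, rose 1.36-fold, to 166 ± 3.14 CPM with CSE against 122 ± 5.28 CPM in the control (SD, n = 3 each, edgeR adjusted p = 3.1e-07). By contrast Dnajc27, which joins a Rab-like GTPase to a J domain, had 5.03, 6.16 and 5.99 CPM with CSE and 13.4, 14.8 and 15.7 CPM in the control. The CSE values were below all control values, with a log2 fold change of −1.36 ± 0.12 (SE, edgeR adjusted p = 1.5e-08). Under all scalings tried these were 3 rises and 1 fall.

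Among 5 genes of nuclear, splicing and ribosome-bound proteins, 3 rose, 1 fell and 1 was not called, where 36.3% of all tested genes were higher and 37.5% lower. Dnajc21, which is needed for maturation of the large ribosomal subunit, had 42.4, 38.8 and 42.3 CPM in CSE libraries 1 to 3 and 18.9, 18.9 and 18.6 CPM in control libraries 1 to 3. The control libraries were almost equal, every CSE library was above them, and the rise was 2.19-fold (log2 fold change 1.13 ± 0.07, SE, edgeR adjusted p = 1.1e-10). Dnajc2, the J protein of the ribosome-associated complex that meets nascent chains, rose 1.60-fold, to 63.9 ± 2.18 CPM with CSE against 39.9 ± 0.936 CPM in the control (SD, n = 3 each). Dnajc8, a spliceosome-associated protein gene, rose 1.46-fold (edgeR adjusted p = 2.7e-07). Dnajc17, also linked to splicing, was at 0.10 ± 0.14 and did not pass (SE, edgeR adjusted p = 0.55).

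Dnajc9 fell. Its protein is a histone chaperone that brings HSP70 to histones H3 and H4, and the gene is expressed most in dividing cells. It had 39.7, 36.2 and 34.8 CPM with CSE and 58.7, 65.6 and 60.6 CPM in the control. No CSE library reached the lowest control library, and the log2 fold change was −0.74 ± 0.07 (SE, edgeR adjusted p = 1.8e-08).

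The 5 members assigned to no site here, as other or less defined, were all lower with CSE by at least 2-fold. Of all tested genes 14.4% fell that far. They had 4 to 177 counts per library. Some of them may act at one of the named sites. By the roles given below, Dnajc24 and Dnajc12 could be counted as cytosolic. The contrast between the lists thus depends on how members were assigned. Dnajc24, which takes part in the synthesis of diphthamide, the modified histidine of elongation factor 2, had 4.36, 4.04 and 4.08 CPM with CSE and 8.36, 9.22 and 7.77 CPM in the control, which is −1.02 ± 0.14 on the log2 scale (SE, edgeR adjusted p = 3.5e-06). Dnajc22 had 4.03, 4.31 and 3.46 CPM with CSE and 9.01, 8.96 and 8.93 CPM in the control, at −1.19 ± 0.14 (SE, edgeR adjusted p = 5.2e-07). In both genes the groups stood well apart, and the control libraries of Dnajc22 were almost equal.

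The last members of this set had fewer counts and wider errors. Dnajc12, which chaperones the aromatic amino acid hydroxylases, had 1.04, 1.53 and 0.724 CPM with CSE and 2.94, 2.27 and 2.98 CPM in the control, at −1.32 ± 0.29 (SE, edgeR adjusted p = 4.9e-04). Dnajc28 had 0.949, 1.80 and 1.55 CPM with CSE and 2.71, 3.69 and 3.58 CPM in the control, at −1.23 ± 0.26 (SE, edgeR adjusted p = 3.6e-04). Dnajb3, known from testis, had 0.332, 0.218 and 0.413 CPM with CSE, from 4 to 8 counts, and 0.883, 1.37 and 0.605 CPM in the control, from 12 to 26 counts. Its groups came close to each other without overlap, at −1.54 ± 0.45 (SE, edgeR adjusted p = 0.0051). In the RefSeq table of GRCr8, Dnajb3 lies within the span of 7 Ugt1a genes and Dnajc28 overlaps Son, which rose (log2 fold change 0.73). Among other called members, Dnajc27 overlaps Adcy3 and LOC120103497, Dnajc9 overlaps Fam149b1, Dnajc16 overlaps Agmat and Dnajc7 overlaps Nkiras2. Dnajc14, Dnajc17 and Dnajc19, not called, also overlap another gene. No source used here gives the strand setting of the counting, so reads of overlapping genes cannot be told apart.

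**Figure D3:**
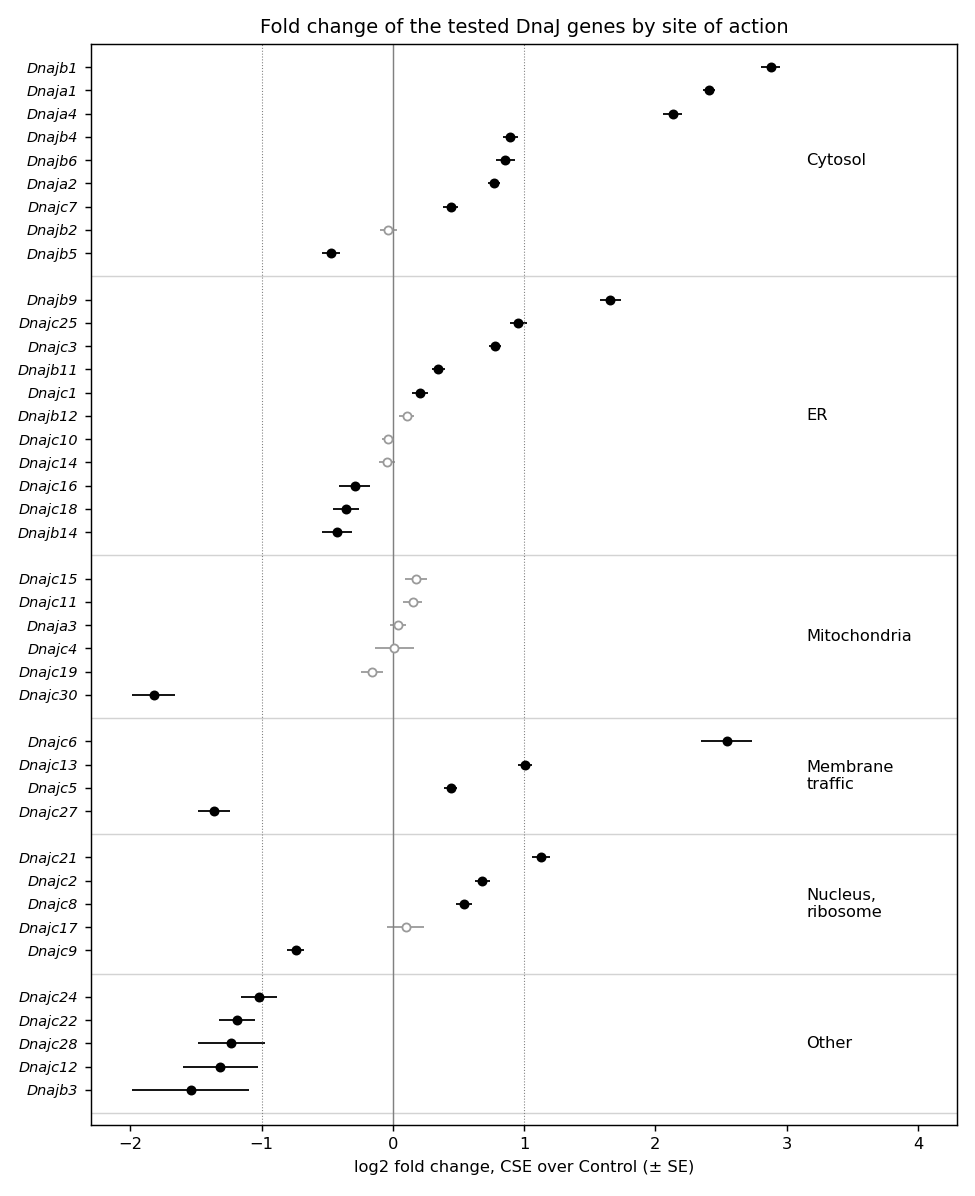
Log2 fold change of CSE over control (horizontal axis) ± SE for the 40 tested DnaJ genes, grouped by the site where the proteins act and ordered within each group. Filled points passed the threshold and open points did not, and dotted lines mark 2-fold changes. Cytosolic genes reach 2.88, while all 5 genes assigned to no site, some of which may act at a named one, lie below −1.

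Calls by class stand beside 36.3% higher and 37.5% lower among all tested genes. Of the 4 class A genes 3 rose, none fell and 1 did not pass, namely the mitochondrial Dnaja3, which was called lower under total counts alone (−0.15, edgeR adjusted p = 0.0419). Class B had 5 higher, 3 lower and 2 not past the threshold among 10 tested, or 50% and 30%. Class C had 10 higher, 9 lower and 7 not past it among 26. Its shares, 38.5% higher and 34.6% lower, were near those of all tested genes, and class A holds only 4 genes. Medians were 1.45, 0.23 and 0.05 for classes A, B and C.

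Genes of HSP70 partners were mostly higher with CSE, in the cytosol, the ER and mitochondria. Of 15 HSP70 and HSP110 genes 14 were tested, with 11 higher, 1 lower and 2 not past the threshold, and a median log2 fold change of 1.34. These are 78.6% higher and 7.14% lower, against 36.3% and 37.5% of all tested genes. Among those that changed at least 4-fold, Hsph1, an HSP110 that exchanges nucleotide on HSP70, rose 13.9-fold, Hspa8, the constitutive HSP70, rose 5.99-fold and Hspa4l rose 5.75-fold. Hspa5, the gene of BiP in the ER, rose 2.65-fold, and Hspa9, the gene of the mitochondrial HSP70, rose 2.49-fold (edgeR adjusted p = 1.5e-14 and 4.1e-14). The inducible Hspa1b rose 62.6-fold, to 348 ± 67.1 CPM with CSE against 5.56 ± 0.252 CPM in the control (SD, n = 3 each). Hspa1a, a near-identical copy whose reads may have been split from it, had no control count and was at least 24.2-fold higher when 3 counts are allowed for all control libraries together, and the list median was again 1.34 with that bound. The constitutive Hspa8 gene may have lost reads to copies, so its level is uncertain.

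Of 12 genes of nucleotide exchange factors and other HSP70 cochaperones 9 rose, 1 fell and 2 were not called, and their median was 0.33. That is 75% higher and 8.33% lower, against 36.3% and 37.5% of all tested genes. Bag3, which links HSP70 to small heat shock proteins and autophagy, rose 12.0-fold and was the only one of these past 4-fold. All 12 other heat shock genes listed were higher, with a median of 1.47, among them Hspb8 at 16.1-fold, Hspb1 at 14.8-fold, Hsp90aa1 at 5.52-fold and Cryab at 4.70-fold. Among J-domain genes with other names, Sec63, which serves BiP at the ER translocon, rose 1.29-fold, and Hscb of iron-sulfur cluster assembly did not pass (log2 fold change 0.16 ± 0.12, SE, edgeR adjusted p = 0.25).

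**Figure D4:**
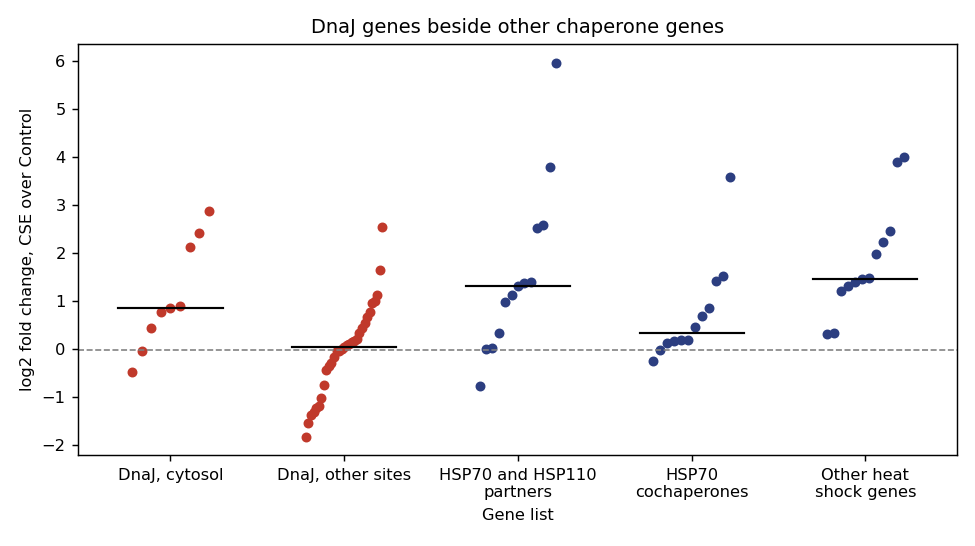
Log2 fold change of CSE over control (vertical axis) for the tested cytosolic DnaJ genes, the other tested DnaJ genes, and 3 lists of partner genes, with 1 point per gene, solid bars for list medians and a dashed line for the median of all tested genes. Hspa1a, which had no control count, is left out, and the medians are 0.85 for cytosolic DnaJ genes, 0.04 for other DnaJ genes, and 1.32, 0.33 and 1.47 for the partner lists from left to right. The other DnaJ genes include the 5 assigned to no site, some of which may act in the cytosol.

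The heat shock and ER stress elements were present in few of these promoters. Of the 45 members 35 had a promoter in the RefSeq table, read from 250 bases before the gene start to 50 after it. The 2-unit heat shock element, which reads the same on both strands, was in 6 of the 35 (17.1%). It was in 16.1% of all 33469 promoters and in 12.4% of the 10249 promoters of tested genes. Dnaja1 held it from base −181 and, in the overlapping matches that make up a 3-unit element, from base 10 to base 22 after the start. Dnajb1 held it from base −11 and from base 18. The other matches were in Dnajb6, which rose, in Dnajc18 and Dnajc27, which fell, and in Dnajc5g, which was at 0. By direction, the 2-unit element was in 2 of 7 promoters of DnaJ genes higher at least 2-fold and 1 of 7 higher under 2-fold. It was in 2 of 9 called lower and in 1 of 12 not passed or not tested. Dnaja4, Dnajb9, Dnajc6, Dnajc13 and Dnajc21 were higher at least 2-fold and held none. Dnaja1 was the only member with the 3-unit form, which 0.765% of all promoters and 0.459% of those of tested genes hold.

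The ER stress element, sought on both strands, was in Dnajc3 alone among the 35, from base −133 to base −115. Of all 33469 promoters 20 held the element (0.0598%), and of the 10249 promoters of tested genes 15 did (0.146%). The ER stress element includes a CCAAT box, which 13 of the 35 DnaJ promoters (37.1%) held on either strand. The box was in 37.3% of all promoters and 36.5% of those of tested genes. The antioxidant element TGACNNNGC was in 5 of the 35 (14.3%), in 12% of all promoters and in 14.6% of those of tested genes. Dnajb9, the ER member that rose most, had neither the heat shock nor the ER stress letters in this window. Such matches describe the sequence and are not shown to be sites of binding.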

How the data were processed

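The authors deposited 1 table of raw read counts per gene symbol, with 1 column for each of 6 libraries and whole numbers throughout. HISAT2 2.0.4 and the rat build Rnor_6.0 are named, without a role, in the submitters' processing notes; no source used here gives the counting tool, the strand setting or the annotation release. Columns were matched to samples by title.

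Counts were fitted over the whole table with edgeR 4.0.16 in R 4.3.3 (filterByExpr, TMM factors, quasi-likelihood F test of CSE against control, 2-sided), with Benjamini-Hochberg adjustment over 13390 genes and a threshold of 0.05. The SE is the log2 fold change divided by the square root of F. CPM values use TMM-scaled library sizes. The fit was tested on simulated data, with 50 genes changed at each of 4 folds. It recovered 50% of them at 1.25-fold, 80% at 1.5-fold, 88% at 2-fold and 98% at 4-fold. Of the unchanged genes 9 were called. A gene that did not pass may therefore have changed by a small fold. Alternatives were other scalings, DESeq2 1.42.0, limma-voom (limma 3.58.1), no filter, a replicate block, a 2-fold threshold and leaving out each library. All pairs of libraries differed by more than sampling noise (chi-square per degree of freedom 3.24 to 5.74 within groups).

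The members and lists were chosen with earlier results of these data known, so lists are described by counts and medians. Full values are given, by rule, for called members with at least 2-fold change and for members moving against their list; others are summarised, and partner genes outside the rule (under 4-fold) are named for context. All 45 symbols were found in the RefSeq gene table of GRCr8, where 10 have copies named as pseudogenes (10 of Dnajb6, 4 of Dnaja1) and 10 overlap another protein-coding gene, so that their counts are uncertain. One result is not reported here.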

Additional observations from a re-analysis of the deposited data

How the results depend on the processing

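Of the 40 tested DnaJ genes, 28 kept their direction and their side of the threshold under all 13 alternatives, 4 changed side only and 8 changed sign in at least 1, all 8 without a call in the reported fit. Requiring a 2-fold change in the reported fit left 7 higher and 7 lower DnaJ genes, and 1438 higher and 1932 lower among all tested genes. Over the alternatives the log2 fold change lay between 0.82 and 1.07 for Dnajc13 and between 0.94 and 1.18 for Dnajc21. For Dnajc24 it lay between −1.21 and −0.96, and for Dnajc28 between −1.42 and −0.99. These genes were thus under 2-fold in some settings. Under total counts alone the log2 fold change was −0.15 for Dnaja3, −0.082 for Dnajb12, −0.038 for Dnajc11, −0.0085 for Dnajc15, −0.090 for Dnajc17 and −0.18 for Dnajc4. Upper-quartile factors gave −0.10 for Dnaja3, −0.030 for Dnajb12, −0.039 for Dnajc17 and −0.13 for Dnajc4. These signs turned because both scalings lower every value, by 0.14 or 0.19 in the median of all genes. Leaving out each library gave ranges of −0.0086 to 0.10 for Dnaja3, −0.082 to 0.0075 for Dnajb2, −0.076 to 0.0044 for Dnajc10, −0.015 to 0.17 for Dnajc17 and −0.053 to 0.065 for Dnajc4, and 18 to 19 DnaJ genes higher and 11 to 12 lower. The numbers of the replicates are not stated to pair the libraries, and same-numbered libraries did not deviate together (r between −0.03 and 0.02). With a replicate block, 18 DnaJ genes were higher and 12 lower, and no DnaJ call changed. DESeq2 ended the call of Dnajc16 (adjusted p = 0.0873), and the cause was not tested. Depth limits the members with few counts, Dnajb3, Dnajc12 and Dnajc28, whose standard errors were 0.26 to 0.45.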
